A study of Rattus norvegicus with 9 samples.

Results

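The Reg family was represented on the array by 4 of its 5 listed members, Reg1a, Reg3a, Reg3b and Reg3g. The members were the probe sets that the platform annotation assigns to exactly 1 symbol, equal to a listed name. Each gene had 1 such probe set, so 4 probe sets of 20826 with a single symbol were described, and no probe set was named for Reg4 here. The RNA was total RNA of pancreatic islets, which hold the endocrine cells of the pancreas, from adult male Wistar rats that were 7 weeks old and caged individually. Cafeteria rats (5 arrays) were given a fat-rich cafeteria diet for 30 days, 66% of its calories being fat, and standard rats (4 arrays) were given standard chow, 8% of its calories being fat, for the same time. The labels name no genetic change and no drug in either group, and they number each array as a biological replicate. Arrays were grouped by title. A separate diet entry contradicts the title on 9 of 9 arrays, and using it instead would turn the sign of each difference. The design text names 1 more standard array, which was not analysed here.

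Reg genes encode small secreted proteins with a C-type lectin fold. Reg1a, the pancreatic stone protein or lithostathine, is made by acinar cells and was first described in regenerating islets. Reg3b, Reg3a and Reg3g are the rat pancreatitis-associated proteins, which are low in the resting pancreas and strongly induced in acinar cells by injury and by cytokines of the interleukin-6 and interleukin-22 type, which act through STAT3. In the gut, Reg3b and Reg3g act against bacteria. EXTL3 has been described as a receptor for Reg proteins. Because the samples were whole islet preparations, more cells of a type and more RNA per cell cannot be told apart, and exocrine tissue carried over with islets is a known source of acinar RNA.

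The 4 measured genes lie together on chromosome 4 in the order Reg3b, Reg3a, Reg1a and Reg3g, with the pseudogene Reg3b-ps1 between Reg3b and Reg3a, whereas Reg4 lies on chromosome 2. Their promoter windows, from 250 bases before to 50 after the annotated start, are shown because the Reg3 genes ran in a similar order over the arrays. The sequences are from RefSeq (build GRCr8), where 5 of 5 listed genes matched by symbol. The windows are chr4:112419526-112419825 on the plus strand for Reg3b, chr4:112430147-112430446 on the plus strand for Reg3a, chr4:112450216-112450515 on the plus strand for Reg1a and chr4:112484689-112484988 on the minus strand for Reg3g. For Reg3a the table holds 2 overlapping windows, and the one that starts first is given. Capitals mark matches, on either strand, to TATAAA (the TATA box letters), CTGGGA (the core of the interleukin-6 response element of acute phase genes) and TTCNNNGAA (the STAT palindrome).
Reg3b: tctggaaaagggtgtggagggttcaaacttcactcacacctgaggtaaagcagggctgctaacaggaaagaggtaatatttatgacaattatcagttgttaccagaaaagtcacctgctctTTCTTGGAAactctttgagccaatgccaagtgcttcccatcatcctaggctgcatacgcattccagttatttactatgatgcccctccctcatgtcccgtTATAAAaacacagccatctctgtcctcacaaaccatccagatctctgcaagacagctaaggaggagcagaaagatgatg
Reg3a: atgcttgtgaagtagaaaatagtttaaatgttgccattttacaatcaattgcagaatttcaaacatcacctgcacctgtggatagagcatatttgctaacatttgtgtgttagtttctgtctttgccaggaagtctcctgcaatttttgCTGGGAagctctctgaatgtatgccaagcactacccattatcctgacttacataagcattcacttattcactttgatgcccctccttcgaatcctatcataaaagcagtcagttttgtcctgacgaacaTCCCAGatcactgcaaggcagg
Reg1a: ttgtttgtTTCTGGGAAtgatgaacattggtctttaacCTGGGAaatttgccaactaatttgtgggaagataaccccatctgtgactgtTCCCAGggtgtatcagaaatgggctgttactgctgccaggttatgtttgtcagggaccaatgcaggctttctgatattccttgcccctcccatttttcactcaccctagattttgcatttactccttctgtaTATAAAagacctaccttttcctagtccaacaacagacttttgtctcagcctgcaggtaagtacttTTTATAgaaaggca
Reg3g: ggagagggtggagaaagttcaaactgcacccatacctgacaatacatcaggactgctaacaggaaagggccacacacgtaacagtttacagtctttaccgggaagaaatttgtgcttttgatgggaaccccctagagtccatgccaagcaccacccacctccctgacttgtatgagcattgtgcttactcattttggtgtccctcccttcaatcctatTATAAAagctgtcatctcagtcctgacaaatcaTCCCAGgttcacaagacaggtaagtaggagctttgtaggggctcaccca

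Reg1a held the CTGGGA letters 3 times, at positions -240 and -212 and, on the other strand, at -161 from the start. The first of them overlaps the only STAT palindrome of that window, at -242. Reg3b held no CTGGGA and 1 STAT palindrome at -129. Reg3a held CTGGGA at -101 and, on the other strand, at 28, and Reg3g held it on the other strand at 1. TATAAA was found at -29 in both Reg1a and Reg3b, at -32 in Reg3g and, on the other strand, at 36 in Reg1a, and not in the Reg3a window. Of 33469 promoter windows of the same length, 30.3% held CTGGGA, 14.2% held TATAAA and 8.87% held the STAT palindrome. None of these letters is therefore particular to Reg genes. The shares count windows that held a match, and where in the window it lay was not compared. Over aligned bases, the windows of Reg3a and Reg3g were 77.5% identical, those of Reg3a and Reg3b 73.0% and those of Reg3b and Reg3g 71.5%. Reg1a was 62.2% to 67.4% identical to them. The Reg4 window, on the other chromosome, was 60.2% to 63.5% identical to the other 4. These matches describe letters only.

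**Figure D1:**
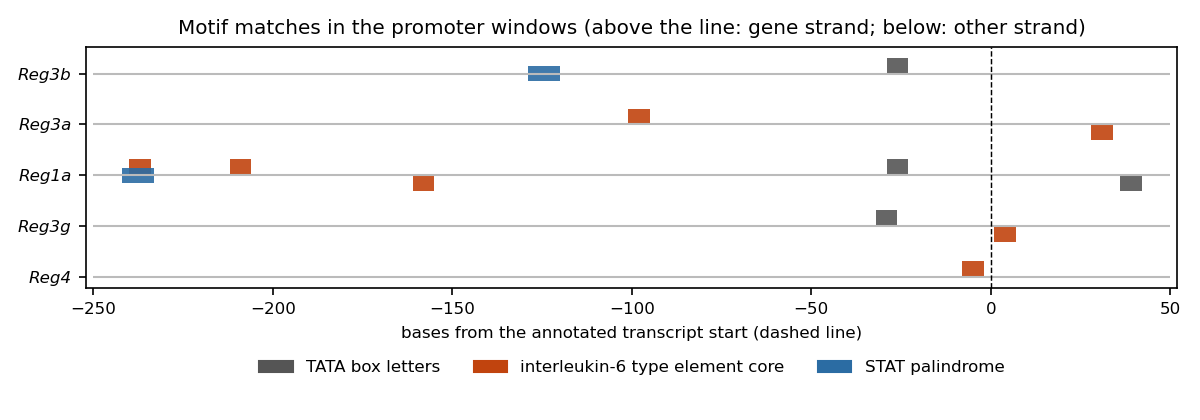
Motif matches in the promoter windows of the 5 Reg genes; the x axis gives bases from the annotated start, and bars above or below each line are matches on the gene strand or the other strand, with the STAT palindrome drawn on the line. Reg1a holds 3 CTGGGA matches upstream of its start, and the STAT palindrome is present in Reg1a and Reg3b.

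No Reg gene was shown to differ between the diets. All 4 had their highest signal of the 9 arrays on cafeteria replicate 4, and without that array the log2 folds of Reg1a and Reg3b were -0.04 and 0.05. By comparison, 7.43% of all 31042 probe sets without controls and 8.67% of those under the intensity filter were highest on that array. This count was chosen after the values were seen. The groups overlapped for all 4 genes, and they did not overlap for 1.75% of all probe sets and 1.76% of those tested. Reg3a and Reg3b were lowest on standard replicate 4, as were 9.55% of all probe sets. Values are deposited linear MAS5 signals, and differences are on the log2(signal + 16) scale, on which differences between low signals come out smaller than they are. Of the 4 probe sets, 1 (Reg1a) reached the intensity filter for the test over all genes, a mean log2 signal at or above the 40th percentile (a signal of about 91.1). Reg1a lay at the 44.6th percentile of mean log2 signal, Reg3b at 33.4, Reg3g at 30.5 and Reg3a at 24.1. In the limma test none of the 18625 probe sets tested passed an adjusted p of 0.05 (0% called), Reg1a included, and 1080 (5.8%) had an unadjusted p under 0.05. By exact permutation, 5.3% of all 31042 probe sets had a p under 0.05 and 0 of the 4 Reg probe sets did. The smallest two-sided p that the 126 splits of 5 and 4 arrays allow is 0.00794.

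Reg1a, the pancreatic stone protein, had signals of 150.6, 73.6, 92.7, 351.9 and 82.3 in cafeteria replicates 1 to 5, against 106.8, 98.1, 111.4 and 84.2 in standard replicates 1 to 4. Cafeteria replicates 4 and 1 lay above all standard arrays and cafeteria replicates 2 and 5 below them, so the groups overlapped. The mean was 150.2 ± 116.7 (SD, n = 5) in cafeteria islets and 100.1 ± 12.0 (SD, n = 4) in standard islets. The log2 fold was 0.30 with a standard error of 0.36 (limma adjusted p = 0.917 over all probe sets tested; exact two-sided permutation p = 0.643). Without cafeteria replicate 4 the log2 fold was -0.04 (limma adjusted p = 0.990), and the cafeteria mean was 99.8 ± 34.8 (SD). The 4 standard arrays spanned a narrow range, with an SD of 0.15 on the log2 scale against 0.84 in cafeteria arrays.

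Reg3a, pancreatitis-associated protein II of the rat, varied most over the arrays. Its signals were 26.1, 7.91, 47.2, 418.4 and 135.6 in cafeteria replicates 1 to 5, against 27.3, 65.4, 10.04 and 5.86 in standard replicates 1 to 4. Cafeteria replicates 4 and 5 lay above all standard arrays, and the other 3 cafeteria arrays lay within the standard range. The mean was 127.0 ± 170.1 (SD, n = 5) in cafeteria islets and 27.1 ± 27.1 (SD, n = 4) in standard islets. The log2 fold was 1.16 ± 0.70 (SE), with an exact two-sided permutation p of 0.262. It was 0.57 without cafeteria replicate 4, with an exact permutation p of 0.486. Within each array, the Reg3a probe set stood at the 68.4th percentile of signals on cafeteria replicate 4 and at the 46.8th on cafeteria replicate 5, and between the 4.37th and 30.1st on the other arrays. Its SD over the 9 arrays was 1.41 on the log2 scale, a value that 0.0548% of all probe sets reached. Reg3a lay under the filter, and the signals of 5.86, 7.91 and 10.04 that enter this SD may lie within background.

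Reg3b, pancreatitis-associated protein I, had signals of 32.3, 36.4, 70.4, 362.2 and 88.9 in cafeteria replicates 1 to 5, against 82.6, 116.7, 45.3 and 8.997 in standard replicates 1 to 4. Only cafeteria replicate 4 lay above the standard range, and standard replicate 4 was the lowest of all arrays. The mean was 118.1 ± 138.5 (SD, n = 5) in cafeteria islets and 63.4 ± 46.6 (SD, n = 4) in standard islets, and the medians were 70.4 in cafeteria and 63.99 in standard islets. The log2 fold was 0.54 ± 0.60 (SE), with an exact two-sided permutation p of 0.524. With cafeteria replicate 4 left out the fold was 0.05, with standard replicate 4 left out 0.06, and with standard replicate 2 left out 0.87. The SD over the 9 arrays was 1.10 on the log2 scale, which 0.387% of all probe sets reached. Reg3b also lay under the filter, and its signal of 8.997 on standard replicate 4 may lie within background.

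Reg3g, pancreatitis-associated protein III, was the steadiest of the Reg3 genes. Its signals were 31.8, 34.9, 69.2, 81.7 and 79.3 in cafeteria replicates 1 to 5, against 65.8, 72.5, 44.0 and 62.7 in standard replicates 1 to 4. Cafeteria replicates 4 and 5 lay above and replicates 1 and 2 below the standard range. The mean was 59.4 ± 24.3 (SD, n = 5) in cafeteria islets and 61.2 ± 12.2 (SD, n = 4) in standard islets, a log2 fold of -0.09 ± 0.31 (SE) with an exact two-sided permutation p of 0.778. The sign turned without cafeteria replicate 1 (0.06) or replicate 2 (0.04). Its SD over the arrays, 0.39 on the log2 scale, was reached by 46.0% of all probe sets, and on cafeteria replicate 4 its signal was 1.03 times the next highest, where that ratio was 3.09 for Reg3a, 3.10 for Reg3b and 2.34 for Reg1a.

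**Figure D2:**
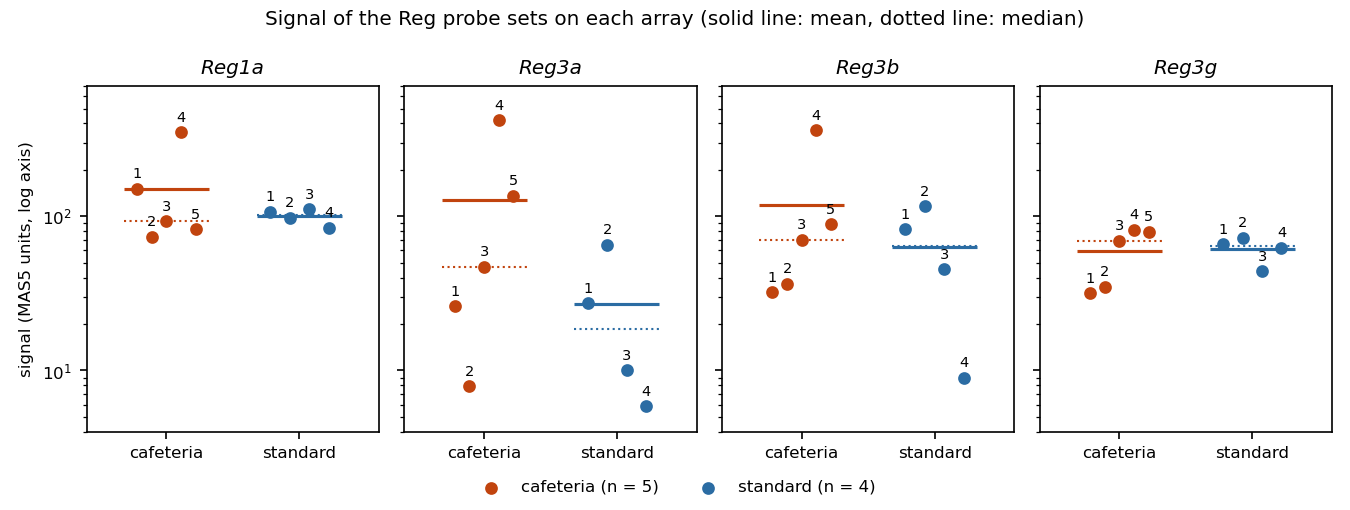
Signals of the 4 Reg probe sets on each array (log axis, MAS5 units), cafeteria arrays left and standard arrays right, numbered by replicate, with the group mean as a solid and the median as a dotted line. Cafeteria replicate 4 is the highest point in every panel, at 351.9 for Reg1a, 418.4 for Reg3a, 362.2 for Reg3b and 81.7 for Reg3g, and the groups overlap in each.

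**Figure D3:**
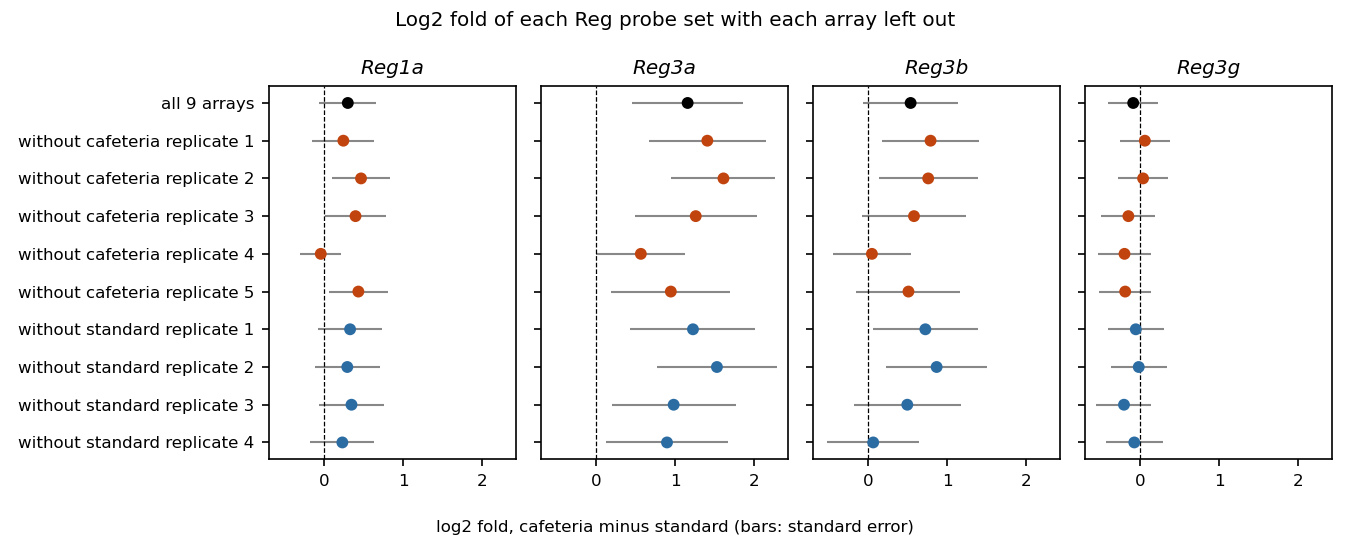
Log2 fold of cafeteria minus standard for each Reg probe set with all 9 arrays (black) and with each array left out (coloured by its group), bars giving the standard error. Leaving out cafeteria replicate 4 moves Reg1a to -0.04, Reg3a to 0.57 and Reg3b to 0.05, while Reg3g lies between -0.20 and 0.06 throughout.

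Across all probe sets, cafeteria replicate 4 resembled the other arrays. Its median signal was 156.9, within the range of 146.9 to 166.6 over the 9 arrays, its median correlation with the other arrays was 0.965 against 0.949 to 0.963 for the others, and its beta-actin 3'/5' signal ratio was 3.24, where the arrays spanned 2.79 to 5.63. It was the array on which the fewest probe sets had their highest signal. The mean log2 signal of 11 beta cell genes, the defining genes of islets, was 13.4 ± 0.083 in cafeteria arrays (SD, n = 5) and 13.4 ± 0.11 in standard arrays (SD, n = 4). That of 8 alpha, delta and PP cell genes was 11.4 ± 0.27 in cafeteria arrays (SD) and 11.6 ± 0.20 in standard arrays, and that of 17 macrophage genes 8.24 ± 0.23 in cafeteria arrays and 8.71 ± 0.32 in standard arrays.

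By rank, the 3 Reg3 genes ran in a similar order over the arrays, while no pair with Reg1a passed after adjustment. By Pearson's r, only Reg3a with Reg3b passed, and the pairs with Reg3g did not stand apart from those with Reg1a. Reg3a and Reg3b had a Pearson correlation of 0.903 over the 9 arrays (exact permutation p = 0.000794, adjusted p = 0.00476 over the 6 pairs of Reg genes) and a Spearman correlation of 0.917 (exact permutation p = 0.0013, adjusted p = 0.00787). Without cafeteria replicates 4 and 5, the arrays farthest from the median Reg3a level, Pearson's r was 0.819 (exact permutation p = 0.0222). Of the other 31041 probe sets, 14 (0.0451%) were as closely correlated with Reg3a as Reg3b was by Pearson's r. That share was 1.54% for Reg3g and 1.37% for Reg1a. With Reg3b, it was 3.14% for Reg3g and 1.44% for Reg1a. For Reg3a and Reg3g, Pearson's r was 0.675 (exact permutation p = 0.0427, adjusted p = 0.106) and Spearman's rho 0.850 (exact permutation p = 0.00607, adjusted p = 0.0122). Without cafeteria replicates 4 and 5, Pearson's r of that pair was 0.516 (exact permutation p = 0.222). For Reg3b and Reg3g, Pearson's r was 0.599 (exact permutation p = 0.0885, adjusted p = 0.106) and Spearman's rho 0.867 (exact permutation p = 0.00451, adjusted p = 0.0122). Without cafeteria replicate 4 and standard replicate 4, Pearson's r of that pair was 0.948 (exact permutation p = 0.00298). Reg3a, Reg3b and Reg3g were each among the 3 highest arrays of their own probe set on cafeteria replicates 4 and 5, with standard replicate 2 as the remaining array for each. The 3 proteins are close relatives, and whether a probe set also binds the RNA of another Reg3 gene was not tested.

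Reg1a with Reg3a had r = 0.684 (exact permutation p = 0.0577, adjusted p = 0.106) and rho = 0.317 (exact permutation p = 0.410, adjusted p = 0.592). Reg1a with Reg3b had r = 0.682 (exact permutation p = 0.0716, adjusted p = 0.106) and rho = 0.267 (exact permutation p = 0.493, adjusted p = 0.592). Cafeteria replicates 1 and 4 lie farthest from the median Reg1a level. Without them, r was -0.0038 with Reg3a (exact permutation p = 0.993) and 0.356 with Reg3b (exact permutation p = 0.446). Without cafeteria replicate 4 alone, r was -0.0424 with Reg3a (exact permutation p = 0.919) and 0.0046 with Reg3b (exact permutation p = 0.991). Both linear relations therefore rest on cafeteria replicate 4. Reg1a with Reg3g had r = 0.197 (exact permutation p = 0.664, adjusted p = 0.664), rho = 0.0667 (exact permutation p = 0.880, adjusted p = 0.880) and r = 0.177 without cafeteria replicates 1 and 4. With cafeteria replicate 4 alone left out, none of the 6 pairs passed after adjustment by Pearson's r, and Reg3a and Reg3b had r = 0.772 (exact permutation p = 0.0223, adjusted p = 0.134). By rank, the Spearman correlations without that array were 0.881 for Reg3a and Reg3b, 0.810 for Reg3b and Reg3g and 0.786 for Reg3a and Reg3g (exact permutation p = 0.00724, 0.0218 and 0.0279, not adjusted).

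**Figure D4:**
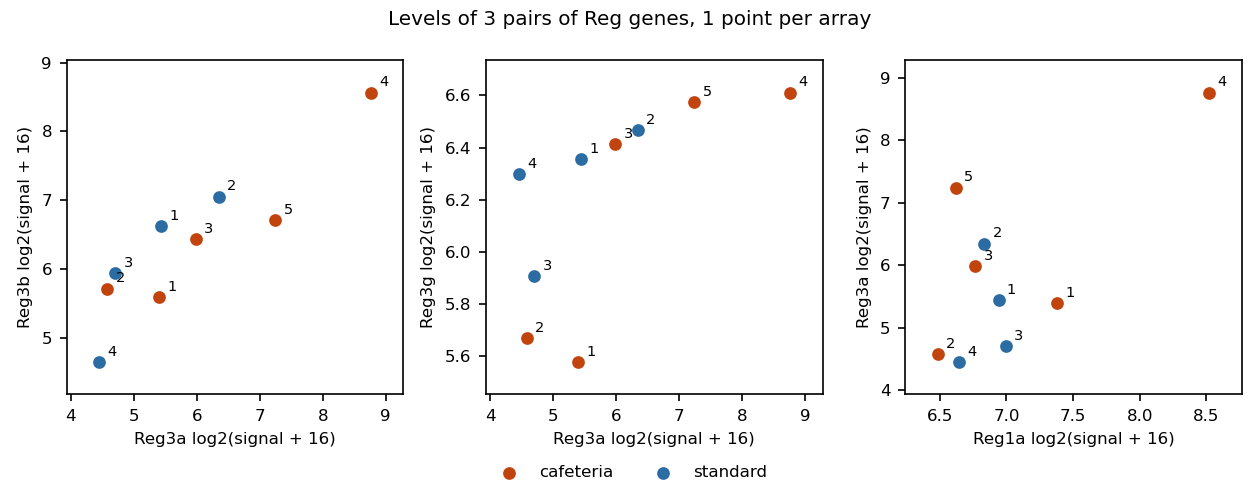
Log2(signal + 16) of Reg3a against Reg3b (left), Reg3a against Reg3g (middle) and Reg1a against Reg3a (right), 1 point per array, numbered by replicate and coloured by diet. The left panel rises over the whole range (Pearson's r = 0.903), and in the right panel only cafeteria replicate 4 is high for both genes (r = 0.684).

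The signals of acinar digestive enzymes, the secreted proteins of exocrine tissue, were used as a measure of the exocrine level of each array. Whether they follow the amount of exocrine tissue was not tested. Of 25 listed genes, 18 were named on the array and 16 tested. 15 had a positive and 1 a negative log2 fold, against 48.1% positive over all probe sets tested, and none passed the test. Their median log2 fold was 0.43, against -0.01 over all probe sets tested, and lay between 0.24 (without standard replicate 4) and 0.77 (without cafeteria replicate 5). Cela3b, an elastase, had 567.2, 329.8, 623.5, 610.5 and 130.0 in cafeteria replicates 1 to 5, against 262.5, 217.5, 69.8 and 99.0 in standard replicates 1 to 4. Ctrb1, a chymotrypsinogen, had 951.1, 247.8, 525.6, 1226 and 303.6 in cafeteria replicates, against 339.0, 319.0, 235.1 and 225.7 in standard replicates. The folds of the trypsinogen Prss1, the carboxypeptidase Cpa1, the lipase Pnlip and the amylase Amy2a3 were 0.36 ± 0.30, 0.72 ± 0.50, 0.43 ± 0.36 and -0.19 ± 0.58 on the log2 scale (SE), with limma adjusted p-values of 0.859 to 0.970.

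The mean log2 signal of the 16 enzymes was 9.46, 8.81, 9.46, 9.32 and 7.59 in cafeteria replicates 1 to 5, and 9.07, 8.82, 8.01 and 8.03 in standard replicates 1 to 4. On cafeteria replicates 1 and 3, the signals were 150.6 and 92.7 for Reg1a and 26.1 and 47.2 for Reg3a. They were 32.3 and 70.4 for Reg3b and 31.8 and 69.2 for Reg3g. Whether exocrine tissue gave the high Reg signals of cafeteria replicate 4 was not tested. Cafeteria replicate 4 had a lower acinar mean than cafeteria replicates 1 and 3. Of the 16 enzymes, 3 were highest on it, against 6.6% of all probe sets tested. The order differed for 6 genes of zymogen granules and other acinar products, whose mean log2 signal was 8.37, 8.63, 8.71, 8.99 and 8.28 in cafeteria replicates 1 to 5, and 9.16, 8.65, 8.37 and 8.22 in standard replicates 1 to 4. Cafeteria replicate 4 was the highest cafeteria array for these genes, below standard replicate 1, and 2 of the 6 were highest on it. The 6 genes include Slc38a5, with signals of 19513 to 26177 over the arrays. They also include Dmbt1, at 1742 on standard replicate 1 and 83.5 to 434.8 on the others. Gp2, of the same list, had 257.7 on cafeteria replicate 4 and 61.1 to 140.3 on the others. Whether the mean of these 6 genes follows exocrine tissue was not tested. Cafeteria replicate 5 was the lowest for the acinar enzymes and the second highest for both Reg3a and Reg3g. No Reg gene was shown to follow the acinar mean in 4 comparisons. For Reg1a, r was 0.468 (exact permutation p = 0.205, adjusted p = 0.691) and rho 0.533 (exact permutation p = 0.148, adjusted p = 0.590). For Reg3b, r was 0.326 (exact permutation p = 0.403, adjusted p = 0.691) and rho 0.0333 (exact permutation p = 0.948, adjusted p = 0.948). For Reg3a, r was 0.190 (exact permutation p = 0.634, adjusted p = 0.691) and rho 0.200 (exact permutation p = 0.613, adjusted p = 0.948). For Reg3g, r was -0.142 (exact permutation p = 0.691, adjusted p = 0.691) and rho -0.100 (exact permutation p = 0.810, adjusted p = 0.948). Without the 2 arrays farthest from the median acinar mean, cafeteria replicate 5 and standard replicate 3, r was 0.484 for Reg1a (exact permutation p = 0.245), 0.544 for Reg3b (exact permutation p = 0.207), 0.511 for Reg3a (exact permutation p = 0.237) and -0.0734 for Reg3g (exact permutation p = 0.888). With the mean of the zymogen granule and other acinar genes in place of the enzymes, r was 0.654 for Reg3b (exact permutation p = 0.0542, adjusted p = 0.217), 0.429 for Reg1a, 0.378 for Reg3a and 0.319 for Reg3g (exact permutation adjusted p = 0.403 each).

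Set against the acinar mean of the same array, the Reg genes showed no detectable difference between diets either. The change in log2(Reg signal + 16) minus the acinar mean, cafeteria minus standard, was -0.14 for Reg1a, 0.71 for Reg3a, 0.09 for Reg3b and -0.53 for Reg3g, with exact two-sided permutation p-values of 0.786, 0.460, 0.897 and 0.389, not adjusted. With single arrays left out, the difference for Reg3a was 0.17 without cafeteria replicate 5, 0.22 without cafeteria replicate 4 and 1.14 without cafeteria replicate 2. For Reg3g it was -0.97 without cafeteria replicate 5 (exact permutation p = 0.0571) and -0.25 without cafeteria replicate 1, and it was -0.08 against the zymogen granule and other acinar genes. For Reg3a this relative level was -4.07, -4.23, -3.48, -0.56 and -0.34 in cafeteria replicates 1 to 5, and -3.64, -2.47, -3.30 and -3.58 in standard replicates 1 to 4. Cafeteria replicates 4 and 5 therefore stood above all other arrays for Reg3a relative to acinar enzymes as well. With the acinar mean as a covariate in the fit, the log2 folds were 0.13 ± 0.37 for Reg1a, 1.11 ± 0.78 for Reg3a, 0.35 ± 0.64 for Reg3b and -0.06 ± 0.35 for Reg3g (SE).

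**Figure D5:**
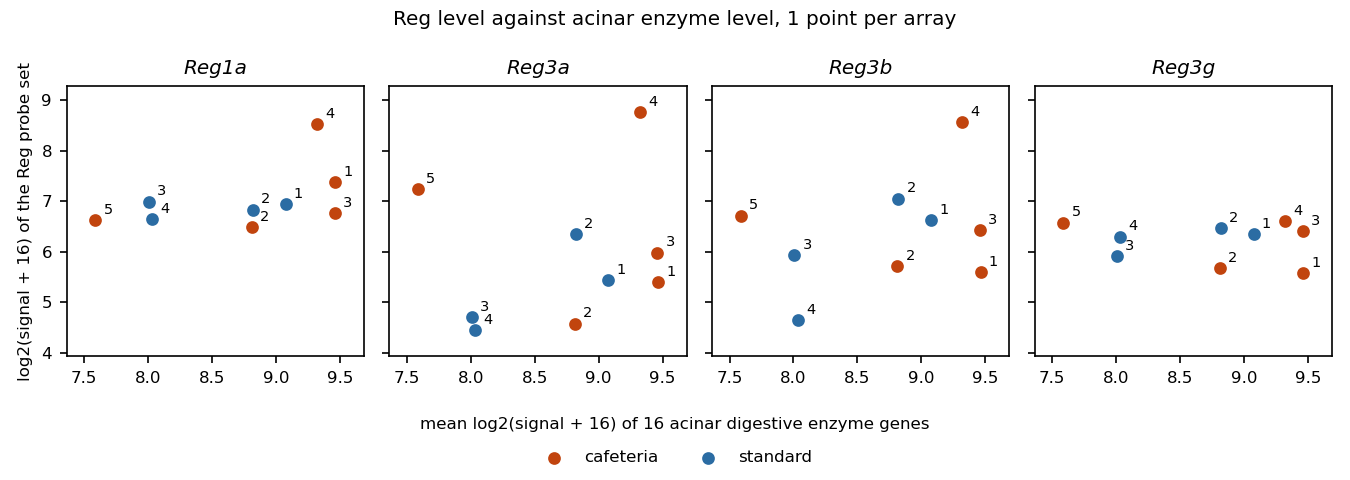
Log2(signal + 16) of each Reg probe set (y axis) against the mean of 16 acinar digestive enzyme genes on the same array (x axis), numbered by replicate and coloured by diet. Cafeteria replicates 1, 3 and 4 have similar acinar means (9.32 to 9.46) and differ widely in Reg3a, and cafeteria replicate 5 combines the lowest acinar mean (7.59) with the second highest Reg3a. Reg1a is second highest on cafeteria replicate 1, the array with the highest acinar mean.

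No gene of the Reg receptor and STAT3 cytokine list passed the test. Of 38 listed, 34 were named and 21 tested; 8 had a positive and 13 a negative log2 fold, none passed, and the median was -0.04. Leaving out standard replicate 1 gave a median of -0.12, and leaving out standard replicate 3 gave 0.02. Extl3, the described receptor, had signals of 1201, 1075, 794.5, 922.4 and 1026 in cafeteria replicates 1 to 5, against 1119, 1322, 1166 and 1243 in standard replicates 1 to 4. Its log2 fold was -0.28 ± 0.13 (SE; limma adjusted p = 0.839). Socs2, a feedback inhibitor of cytokine receptors, had -0.62 ± 0.25, the kinase Jak1 -0.25 ± 0.13 and the cytokine receptor Il17ra -0.22 ± 0.12 (limma adjusted p-values of 0.839 to 0.859). Stat3 itself, chosen after its values were seen, had signals of 1284, 2459, 1027, 1970 and 1221 in cafeteria replicates and 595.2, 1738, 2480 and 1106 in standard replicates. Il6 and the STAT3 target Socs3 did not reach the filter.

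Genes of pancreatic injury and the acute phase did not pass either. Of 32 listed, 31 were named and 20 tested; 7 had a positive and 13 a negative log2 fold, with a median of -0.15, which was 0.07 without standard replicate 1 and -0.28 without standard replicate 4. The fibrinogen chain gene Fgg had 83.6, 94.7, 94.4, 212.0 and 218.3 in cafeteria replicates 1 to 5, against 61.2, 54.2, 81.7 and 76.5 in standard replicates 1 to 4, a log2 fold of 0.80 ± 0.30 (SE; limma adjusted p = 0.839). Its 2 highest arrays, cafeteria replicates 4 and 5, were also those of Reg3a, a likeness seen after the values were known. The fibrinogen chain gene Fgb was instead highest on cafeteria replicates 4 and 1 (215.1 and 205.5), with 146.0 on cafeteria replicate 5. Other genes of the list, such as Spp1 and Atf3, were highest on standard replicate 1. The lipocalin gene Lcn2, chosen after its values were seen, had 90.8, 29.4, 87.2, 356.2 and 84.8 in cafeteria replicates and 94.9, 196.6, 93.1 and 73.8 in standard replicates, with its highest signal again on cafeteria replicate 4. The trefoil peptide Tff3 had a log2 fold of -0.65 ± 0.21, the keratin Krt8 -0.32 ± 0.11 and the protease inhibitor A2m -0.56 ± 0.23 (limma adjusted p = 0.839 each). On cafeteria replicate 4, 4 of the 20 genes had their highest signal, against 6.6% of all probe sets tested.

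Markers of other cells were set beside cafeteria replicate 4, an array picked after the Reg values were seen. Of all probe sets tested, 6.6% were highest on it. Of 11 stellate cell and fibroblast genes, 6 were highest on it, and their mean log2 signal there was 9.93, against 8.90 to 9.56 on the other cafeteria arrays and 9.25 to 9.59 on standard arrays. Col3a1, a fibrillar collagen, had 6620 there, against 1783 to 4688 on the other cafeteria arrays and 3077 to 3610 on standard arrays. Other genes of this list went another way. Acta2 had 323.9 there, below the 400.4 to 690.3 of standard arrays. Dcn had 1317 there and was highest on standard replicate 2, at 1629. Of the 16 acinar enzymes 3 were highest on cafeteria replicate 4, as were 2 of the 6 zymogen granule and other acinar genes. So were 1 of 9 duct genes and 1 of 8 alpha, delta and PP cell genes. Of 17 macrophage, 3 lymphocyte, 10 endothelial and 11 beta cell genes none was. Their part in the high Reg signals of that array was not tested.

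None of the remaining lists had a gene that passed. Of 6 tested genes of zymogen granules and other acinar products 4 had a positive log2 fold (median 0.20), and of 3 acinar transcription factor genes 3 had (median 0.09). Positive folds were counted for 6 of 11 beta cell genes (median 0.09), 1 of 8 alpha, delta and PP cell genes (-0.18, and -0.07 without cafeteria replicate 3), 2 of 9 duct genes (-0.18, and -0.06 without standard replicate 1) and 0 of 4 gut goblet and enteroendocrine genes (-0.15, and -0.03 without standard replicate 1). The gut list includes Chga, with mean signals of 19271 in cafeteria and 20004 in standard islets. The acinar transcription factors include Xbp1, with 10452 and 10041. Whether these 2 lists follow the cells they are named for was not tested. Of 17 macrophage and antigen presentation genes 1 had a positive fold (median -0.53, and -0.22 without standard replicate 3). For 3 lymphocyte genes the median was -0.75 with 0 positive, and -0.46 without standard replicate 3, and for 10 endothelial genes it was -0.12 with 2 positive. Over stellate and fibroblast genes the median was 0.01. With each array left out, the median lay between 0.11 and 0.29 for the zymogen granule list, 0.03 and 0.12 for the transcription factors, 0.01 and 0.13 for beta cell genes, -0.20 and -0.08 for endothelial genes, and -0.10 and 0.12 for stellate and fibroblast genes.

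The probe sets most like each Reg gene over the 9 arrays were found among 14052 named, tested probe sets by Pearson's r. For Reg1a they were Grk5, a kinase of G protein-coupled receptors (r = 0.95), the arginine methyltransferase Prmt7 (0.88) and Ttc9c (0.86). For Reg3a they were Hdc, the enzyme that makes histamine (0.93), the nucleolar protein gene Nop16 (0.89) and Rabgef1, an exchange factor for endosomal Rab proteins (0.88). For Reg3b they were Dop1b (0.89), the mitochondrial import gene Timm8a1 (0.89) and again Rabgef1 (0.89). For Reg3g they were the importin gene Ipo11 (0.96), the ribosomal protein gene Rpl3 (0.93) and the ubiquitin ligase gene Mkrn1 (0.90). Hdc had 165.3, 126.8, 202.2, 309.7 and 219.5 in cafeteria replicates 1 to 5 and 170.3, 147.5, 122.9 and 107.4 in standard replicates 1 to 4. Without cafeteria replicate 4, r with Reg3a was 0.85 for Hdc, and r with Reg1a was 0.73 for Grk5. These are the highest values among that many probe sets over 9 arrays, and are descriptions.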

How the data were processed

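Expression was measured on Affymetrix Rat 230 2.0 arrays, 5 from cafeteria and 4 from standard islets. The deposited values are linear intensity signals, made with MAS5 per the submitters' processing notes. No label or file used here gives the settings of that step or detection calls. The 2% trimmed mean of each array was 500.0, so no scaling was added. Precision is set by the number of arrays. Groups follow the titles. The members and gene lists were chosen with earlier results of these data known.

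The 57 control probe sets were left out. Log2(signal + 16) was fitted with diet as the only term and an intensity trend in limma 3.58.1 (R 4.3.3), with Benjamini-Hochberg adjustment over the 18625 probe sets passing the filter. Reg probe sets under the filter have values and standard errors from the same fit on all 31042. Single values and correlations had exact two-sided permutation tests in Python 3.11.15. No batch is given in the labels used here. The fit was tested on simulated data with normal noise drawn from its own variances, which checks the code and not these arrays. Alternatives were other pseudocounts, filters, normalisations and variance settings, each array left out, the replicate number as a block and the acinar mean as a covariate. The 13 gene lists are described by counts and medians, with 1 probe set per gene, that with the highest mean. Named genes are the Reg members, for each the 3 most correlated genes, up to 4 genes per list with the smallest p, and 6 acinar enzymes. Promoter windows were aligned globally with Biopython 1.88. Protein sequences were not used here.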

Additional observations from a re-analysis of the deposited data

Results flagged for a closer look

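Within the cafeteria group, the Reg1a signal of 351.9 and the Reg3b signal of 362.2 on cafeteria replicate 4 stood far above the other 4 arrays: the gap to the next array made up 0.723 and 0.828 of the group's whole range, against a critical value of 0.71 for 5 arrays. On the log2 scale neither gap passed. Of 26 groups of values examined, several of them the same arrays on another scale, 2 passed, and chance gives about 1 in 20.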

How the results depend on the processing

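Reg1a, which alone of the Reg probe sets reached the main filter, passed in none of the alternatives of the limma fit that tested it. Without the filter all 4 were tested and 0 passed, while a filter at the 60th percentile left none of them. No Reg probe set passed relative to the acinar enzymes or in correlation with them. Over all probe sets the count past the threshold stayed at 0 except without standard replicate 2, where it was 2 (0 to 2 over the arrays left out). The count of correlated Reg pairs, 1 with all arrays, was 0 without cafeteria replicate 4 and 3 without standard replicate 4 (0 to 3); it was 1 with deviations from the diet means, under the other pseudocounts and with quantile normalisation. With each array left out, the log2 fold lay between -0.0416 and 0.47 for Reg1a, 0.57 and 1.61 for Reg3a, 0.05 and 0.87 for Reg3b, and -0.20 and 0.0601 for Reg3g, and with array weights Reg1a, Reg3a and Reg3b had 0.64, 1.55 and 0.92. The difference relative to acinar enzymes lay between -0.39 and 0.0860 for Reg1a, 0.17 and 1.14 for Reg3a, -0.30 and 0.48 for Reg3b, and -0.97 and -0.25 for Reg3g. Reg3b had -0.0538 with a pseudocount of 64, and against the other acinar list Reg1a had 0.30, Reg3a 1.16, Reg3b 0.54 and Reg3g -0.08. The correlation with the acinar enzymes lay between -0.0877 and 0.565 for Reg3a and -0.304 and 0.133 for Reg3g. With the other acinar list it was 0.319 for Reg3g and 0.654 for Reg3b. The correlation of Reg1a lay between -0.0424 and 0.854 with Reg3a, between 0.0046 and 0.785 with Reg3b and between -0.399 and 0.423 with Reg3g. Causes of these moves were not tested beyond the arrays left out. Same-numbered arrays of the diets share only a number: their deviations correlated at -0.384, -0.0526, -0.121 and 0.0296, and 0 of 4 cafeteria arrays were closest to their own number. With the replicate block the count was 0 over all probe sets (lowest adjusted p = 0.0811) and 0 for Reg genes, with log2 folds of 0.43 (Reg1a), 0.95 (Reg3a), 0.51 (Reg3b) and -0.19 (Reg3g). Without detection calls, the low signals of the Reg3 genes on several arrays may lie within background.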
